A study of Mus musculus with 6 samples.

Results

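Muc5ac and Muc5b encode the secreted gel-forming mucins of the airway. They were chosen by name, through the RefSeq accession carried in each probe set's identifier. They are 2 of the 909 genes that could be named on the array, and 1 of the 963 named probe sets reads each. Another 283 of the 1246 probe sets stayed unnamed. The Muc5ac probe set, NM_010844.1_psr1_s_at, carries the suffix s, which marks probes that can bind several transcripts. The Muc5b probe set, NM_028801.2_psr1_at, carries no such mark.

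RNA from cultured MLE-15 cells was hybridised to 6 Affymetrix arrays. One group of 3 arrays came from cells exposed to phorbol 12-myristate 13-acetate (PMA), at 10 nM for 24 h by the series' design text, and the other 3 from control cells without PMA. The replicates carry the numbers 1, 2 and 3 in each group. In the sample titles of both groups, number 2 also carries the letter A and number 3 the letter B, while number 1 carries no letter. What the letters mark is not given, and the labels do not state that the replicates were separate cultures. The p-values therefore rest on array-to-array spread, which may be technical. MLE-15 is an epithelial line from lung tumours of mice that carry the SV40 large T antigen under the surfactant protein C promoter, so every array, control included, comes from transformed cells of 1 line. The question behind the series was whether mucin genes, along with the enzymes that add sialic acid or sulfate to glycans, are expressed and are induced by PMA.

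Gel-forming mucins are very long, heavily O-glycosylated proteins whose cysteine-rich ends link them into polymers, and these polymers give mucus its viscosity. Muc5b is made by club cells and submucosal glands and is needed for baseline mucociliary clearance in mice, while Muc5ac is the mucin of goblet cells that increases in allergic and irritant responses. Their sialylated and sulfated side chains carry most of their mass and charge. Phorbol esters activate protein kinase C and are a classical stimulus of MUC5AC transcription in human airway cell lines. In the annotation both genes lie on chromosome 7, next to each other in a cluster that runs Muc6, Muc2, Muc5ac, Muc5b. Neither Muc2 nor Muc6 is among the genes named on this array.

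All values are RMA values on the log2 scale, so 1 unit is a doubling of signal. Array medians lay between 5.64 and 5.71. The table holds no background or control probe sets, so a value cannot be turned into a call of presence, and a level on one probe set cannot be ranked against a level on another. Of 6 listed alveolar type 2 markers, only the lung collectins Sftpa1 and Sftpd were measured. Sftpa1 averaged 3.49 ± 0.28 in PMA and 3.53 ± 0.32 in control arrays (SD, n = 3 each). Sftpd averaged 5.38 ± 0.093 in PMA and 5.42 ± 0.12 in control arrays (SD, n = 3 each). None of the listed club (4), ciliated (3) or basal (4) cell markers was among the named genes, nor any of the 19 listed genes of the mucous cell programme such as Spdef, Foxa3 and Agr2.

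Muc5ac read 6.45, 8.42 and 8.77 in PMA arrays 1, 2 and 3. In control arrays 1, 2 and 3 it read 5.67, 8.76 and 8.67. The number 1 array was the low one in both groups, and the PMA and control values overlapped.

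Muc5b read 9.97, 11.20 and 11.04 in PMA arrays 1, 2 and 3, against 9.95, 11.07 and 11.04 in control arrays 1, 2 and 3. Here too number 1 was low in both groups and the groups overlapped. In the plot of both genes by array, the 2 number 1 arrays lie apart from the other 4.

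**Figure D1:**
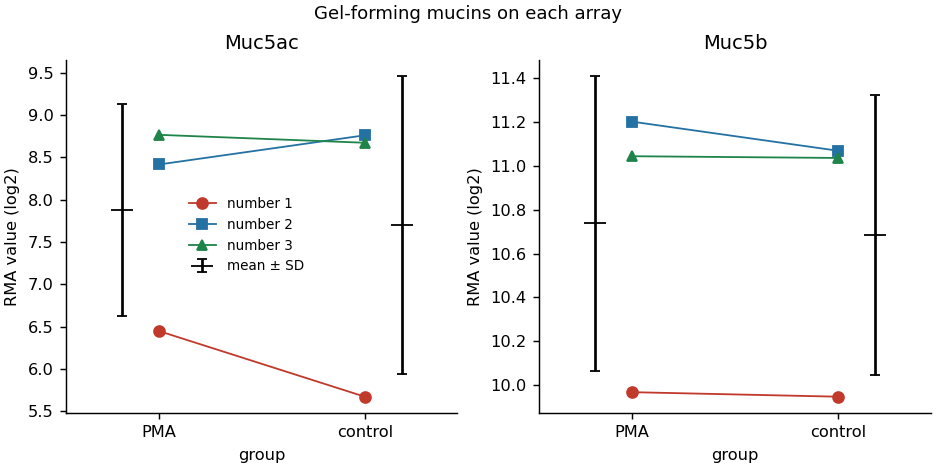
RMA values (log2) of Muc5ac (left) and Muc5b (right) in PMA and control arrays, 1 point per array, with lines joining arrays of the same number and black bars giving the mean ± SD of the 3 arrays. The number 1 arrays (Muc5ac 6.45 and 5.67, Muc5b 9.97 and 9.95) lie below all other arrays in both groups.

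Neither mucin passed the test for a difference between PMA and control cells. Muc5ac averaged 7.88 ± 1.25 in PMA and 7.70 ± 1.76 in control arrays (SD, n = 3 each), a difference of 0.18 log2 units with a 95% interval from -2.49 to 2.84. The Muc5ac adjusted p was 0.999 by limma with Benjamini-Hochberg adjustment over all probe sets. Muc5b averaged 10.74 ± 0.67 in PMA and 10.68 ± 0.64 in control arrays (SD, n = 3 each), a difference of 0.054 with a 95% interval from -1.10 to 1.20 and a limma adjusted p of 0.999. In this comparison limma called 0% of all probe sets (0 of 1246, with 4 at an unadjusted p under 0.05), so 0 of 2 mucins is the same as the background. In bulk RNA, fewer cells making a transcript and less of it per cell cannot be told apart.

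A two-sided exact permutation test over the 20 ways of splitting the arrays 3 against 3 gave p = 0.800 for Muc5ac and p = 0.700 for Muc5b, where the smallest value this design allows is 0.10. Exchanging PMA and control within numbers, an exact test of 8 arrangements, gave p = 0.750 for Muc5ac and p = 0.250 for Muc5b, and 0.250 is the smallest it allows.

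Within numbers, the Muc5ac difference changed sign. PMA over control was 1.71-fold in number 1 (0.78 log2 units), 0.79-fold in number 2 (-0.35) and 1.07-fold in number 3 (0.094). The number 1 difference was large for these arrays: only 2 of the 1246 probe sets differed by more between PMA 1 and control 1, where the median absolute difference was 0.10. In number 2, 62 probe sets differed by more than Muc5ac, and in number 3, 387 did.

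Muc5b was higher with PMA in all 3 numbers, but by little. PMA over control was 1.01-fold in number 1, 1.10-fold in number 2 and 1.01-fold in number 3. Differences larger than that of Muc5b were shown by 1119, 384 and 1153 probe sets in numbers 1, 2 and 3.

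Taking the number as a block removed most of the spread and narrowed the intervals. The Muc5ac difference then had a 95% interval from -0.21 to 0.56 log2 units, or 0.87-fold to 1.47-fold, with a limma adjusted p of 0.992. The Muc5b interval ran from -0.097 to 0.20, or 0.94-fold to 1.15-fold, with a limma adjusted p of 0.995. In this fit a doubling of either signal lay outside the interval, but so it did for 100% of all probe sets (1246 of 1246). Limma draws each SE partly from the spread of all probe sets. The Muc5ac pairs themselves ranged from -0.35 to 0.78 log2 units, so a doubling of Muc5ac is not excluded. Limma again called 0% of all probe sets, with 42 at an unadjusted p under 0.05. A single term for number 1, used instead of the block, also gave 0% of probe sets called by limma (44 had an unadjusted p under 0.05). On the arrays of numbers 2 and 3 alone, the Muc5ac difference was -0.13 (95% interval -0.40 to 0.15) and that of Muc5b was 0.070 (-0.12 to 0.26).

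**Figure D2:**
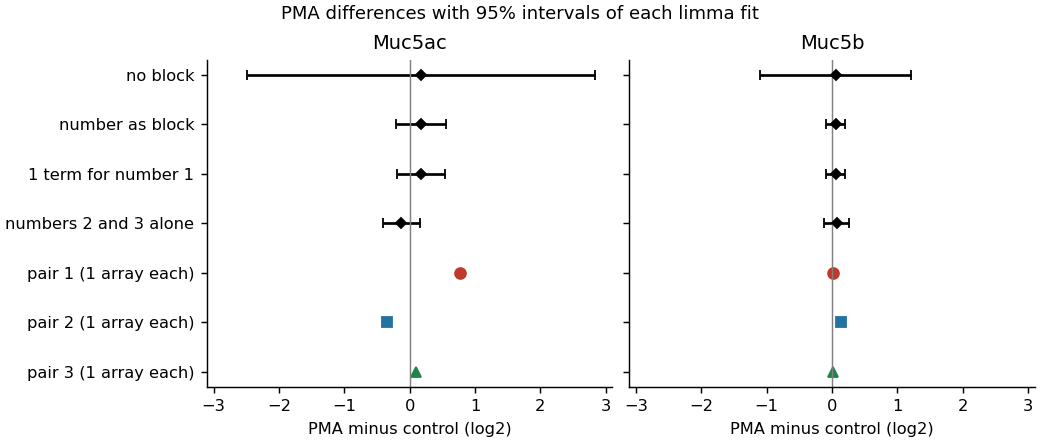
PMA minus control (log2) for Muc5ac (left) and Muc5b (right), with diamonds and bars for the estimate and 95% interval of 4 limma fits and coloured points for the difference within each numbered pair (1 array each). All intervals include 0, and the Muc5ac pairs lie on both sides of 0, from -0.35 to 0.78.

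Whether the PMA difference depended on the number was tested with an interaction term. For Muc5ac the difference in number 1 exceeded that in numbers 2 and 3 by 0.90 log2 units (SE 0.20), and the limma adjusted p was 0.427 (unadjusted 0.00281). For Muc5b the same quantity was -0.050 (SE 0.14), with a limma adjusted p of 0.958. Limma called 0.0803% of all probe sets here (1 of 1246). The unequal PMA differences of Muc5ac therefore did not pass the adjustment, with 1 pair of arrays on one side and 2 pairs on the other.

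Both mucins were lower in the number 1 arrays than in numbers 2 and 3, in PMA and control cells alike. Muc5ac had a mean of 6.06 in number 1 (2 arrays) and of 8.65 ± 0.16 in numbers 2 and 3 (SD, n = 4), which is 6.04-fold lower in number 1. Muc5b had a mean of 9.96 in number 1 and of 11.09 ± 0.077 in numbers 2 and 3 (SD, n = 4), 2.19-fold lower in number 1. That number 1 stands apart was already known from these arrays when the comparison was set. It compares 1 pair with 2 pairs, so its p-values speak of these arrays only.

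In PMA arrays the Muc5ac signal was 4.42-fold lower in number 1 than the mean of numbers 2 and 3, and in control arrays it was 8.26-fold lower. For Muc5b the ratio was 2.23-fold in PMA arrays and 2.15-fold in control arrays. By contrast, numbers 2 and 3 differed from each other by -0.35 (PMA) and 0.088 (control) log2 units for Muc5ac, number 2 minus number 3, and by 0.16 and 0.033 for Muc5b.

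With PMA as a term, the Muc5ac difference between number 1 and the other arrays was -2.59 log2 units (95% interval -2.98 to -2.21) and that of Muc5b was -1.13 (-1.29 to -0.97). The limma adjusted p was 6.16e-07 for Muc5ac and 4.42e-07 for Muc5b. Limma called 14.1% of all probe sets as lower in number 1, and for 18.1% both number 1 arrays were below all 4 others, as they were for both mucins. A call alone was therefore common on these arrays. In size, Muc5ac had the 13th largest lower value and Muc5b the 47th, and 23 probe sets were called lower by over 2 log2 units (1.85%) and 56 by over 1 (4.49%).

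An exact two-sided permutation test of 2 arrays against 4 gave p = 0.0667 for each mucin, the smallest of its 15 arrangements. This design cannot give a smaller p. The Muc5ac difference minus the Muc5b difference was -1.46 log2 units, at -0.99 in PMA arrays and -1.94 in control arrays, given here as values without a test.

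**Figure D3:**
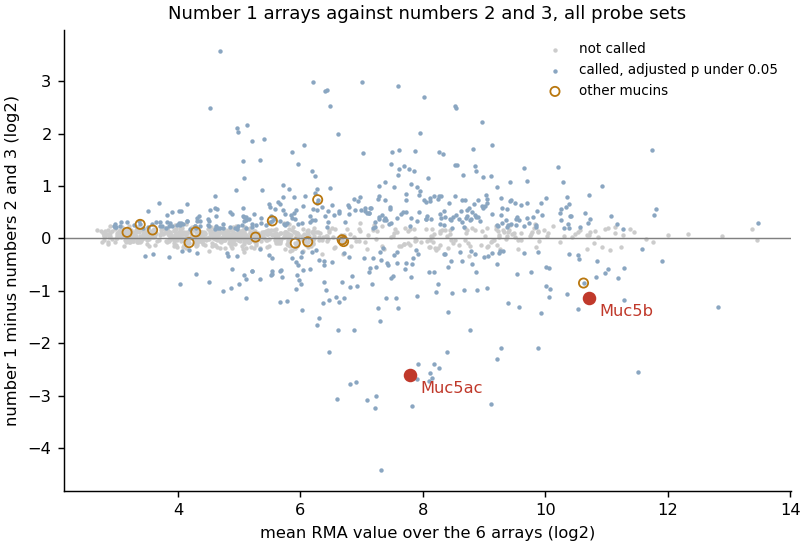
Difference between number 1 and numbers 2 and 3 (log2, vertical) against the mean RMA value over the 6 arrays (log2, horizontal) for all 1246 probe sets, with called probe sets in blue, the other mucins ringed and the gel-forming mucins in red. Muc5ac (-2.59) lies near the lower edge of the cloud and Muc5b (-1.13) nearer to 0.

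Some markers of other cell types differed with the number too. Limma called 1 of 5 leukocyte, 4 of 4 endothelial, 1 of 3 fibroblast and 1 of 2 alveolar markers measured, against 41.7% of all probe sets. Of 9 listed leukocyte markers 5 were measured, and their summed signal was 7.66 to 7.90 (log2) in number 1 and 8.61 to 8.78 in numbers 2 and 3. Only the mannose receptor Mrc1, at -2.74, was called among these 5, and Cd22, Cd33, Selplg and Siglec1 differed by less than 0.1. The sum of 4 of 6 endothelial markers was 8.99 to 9.16 in number 1 and 9.95 to 10.50 in the others, with Pecam1 (-1.37), Vcam1 (-1.31) and Sele (-1.13) lower and Selp (0.39) higher. The sum of 3 of 5 fibroblast markers was 7.60 to 8.11 in number 1 and 9.67 to 10.59 in the others. Only the proteoglycan Dcn was called, at -2.31, on a probe set with the suffix s, and Lum and Pdgfra were not called. RMA values do not reach 0, so no marker could be called absent, and Ptprc, Cdh5 and Col1a1 were not among the named genes. The alveolar sum, of Sftpa1 and Sftpd, was 5.87 to 5.91 in number 1 and 5.61 to 5.79 in the others. Sftpa1 was called higher in number 1, at 0.52, and Sftpd was not called. The part of these differences in the mucin result was not tested.

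The other mucins and sialomucins were called in both directions between number 1 and the other arrays. Of 19 listed genes 13 were measured, and 1 was called lower and 3 higher in number 1, where 14.1% of all probe sets were called lower and 27.5% higher, with a median difference of 0.025 against 0.079 over all probe sets. The sialomucin Cd164, a membrane protein of endosomes and the cell surface, was lower at -0.85 (SE 0.10). The oviductal glycoprotein Ovgp1 was higher at 0.74 (SE 0.077), the membrane mucin Muc1, which lines apical epithelial surfaces, at 0.33 (SE 0.078), and Prg4, the lubricin of joints, at 0.27 (SE 0.068). The other 9, among them the membrane mucins Muc4, Muc13 and Muc20, were not called. With PMA 0 of these 13 were called, 9 had a higher and 4 a lower mean, and the largest differences were Cd164 at 0.14 (SE 0.36) and the endothelial sialomucin Emcn at 0.073 (SE 0.098).

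**Figure D4:**
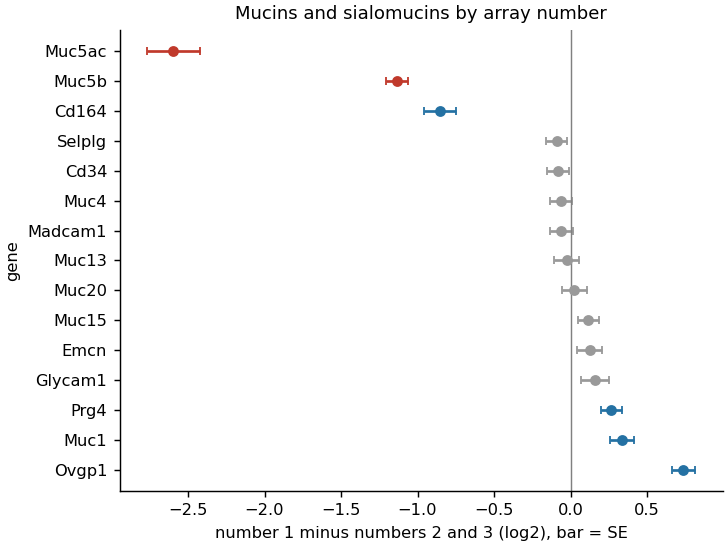
Difference between number 1 and numbers 2 and 3 (log2, bars give limma's SE) for Muc5ac and Muc5b (red) and for 13 other mucins and sialomucins, blue where called and grey where not. Of the 13, Cd164 (-0.85) is the one called lower, and Ovgp1, Muc1 and Prg4 are called higher.

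The enzymes that build mucin-type O-glycans, the side chains of both mucins, moved in both directions with the number. Of 35 listed genes 33 were measured, with 8 called lower and 8 higher in number 1 (14.1% and 27.5% of all probe sets). Lower were B3gnt3, which extends core 1 chains, at -1.40, the mucin-type core 2 and core 4 enzyme Gcnt3 at -1.33, the initiating enzyme Galnt1 at -0.97 and the core 2 enzyme Gcnt1 at -0.92. Higher were the sialyltransferase St6galnac2 at 2.82, the sulfotransferase Chst2 at 1.47, the initiating enzyme Galnt10 at 1.33 and the core 1 sialyltransferase St3gal1 at 1.17. With PMA 0 of the 33 were called, 23 had a higher and 10 a lower mean, and St3gal1 (0.21, SE 0.50) and B3gnt3 (-0.17, SE 0.58) differed most. The probe set of B3gnt3 carries the suffix s.

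Signals known to act on airway mucin genes were measured as 31 of 38 listed ligands and receptors. In number 1, 13 of the 31 were called, near the 41.7% of all probe sets called in either direction. The 5 called lower included the Notch ligand Jag1 at -2.08, the EGF receptor ligands Btc at -1.43 and Areg at -1.31 and the receptor Erbb3 at -0.84. Of the 8 called higher, the receptors Notch2 at 1.67, Notch1 at 1.33 and Notch3 at 0.65 and the ligand Jag2 at 0.58 differed most. The Notch2 probe set carries the suffix s. The list's median difference was 0.049. The receptor Egfr itself was not called, at -0.095 (SE 0.069), nor were the type 2 cytokine Il13 and its receptor chains Il4ra and Il13ra1. With PMA 0 of the 31 were called, 16 had a higher and 15 a lower mean, and Il1b at 0.20 (SE 0.10) and Tgfbr1 at 0.19 (SE 0.11) differed most.

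Of 8 listed airway chemokines and growth factors 7 were measured. Ccl20 (-3.09), Cxcl2 (-3.06) and Cxcl1 (-1.13) were called lower in number 1, and Csf2 (2.17) and Cxcl15 (1.65) higher. Of all probe sets, 14.1% were called lower and 27.5% higher. With PMA 0 of these 7 were called, 5 had a higher and 2 a lower mean, and Cxcl1 (0.21, SE 0.48) and Ccl20 (-0.14, SE 1.25) differed most. The probe sets of Ccl20 and Cxcl15 carry the suffix s.

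Genes whose profile over the 6 arrays was most like that of each mucin were ranked among 908 named genes, by the root mean square distance between profiles centred on their own means. Nearest to Muc5ac were Mrc1 (distance 0.20 log2 units), Acan, the cartilage proteoglycan aggrecan (0.21), Igfbp3, an IGF binding protein (0.24), Angptl4, a secreted lipoprotein lipase inhibitor (0.25), and the chemokine Cxcl2 (0.28). All 5 were lower in number 1, with differences from -3.06 (Cxcl2) to -2.40 (Angptl4) log2 units. Mrc1 read 5.47, 7.97 and 7.84 in PMA arrays 1, 2 and 3 and 4.68, 7.72 and 7.73 in control arrays 1, 2 and 3. Muc5ac and all 5 of these genes read lower in control 1 than in PMA 1. For Acan (6.35 against 6.44) and Angptl4 (6.56 against 6.60) that gap was small. The genes nearest to each mucin were picked for likeness on these same arrays, so what they share with it follows largely from the choice.

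Nearest to Muc5b were Rab7, a GTPase of late endosomes (distance 0.084), Gfpt2, an enzyme that feeds the hexosamine pathway (0.096), the lectin-like membrane protein Chodl (0.096), the glycolipid enzyme B3gnt5 (0.11) and Fut8, which adds core fucose to N-glycans (0.12). Their number 1 differences ran from -1.32 (Gfpt2) to -0.95 (Chodl). Muc5b was 31st in distance from Muc5ac, at 0.74, and Muc5ac was 741st from Muc5b. This distance counts the size of a change as well as its shape. Over the 6 arrays, with the gap of number 1 in both, the 2 mucins had a Pearson correlation of 0.967. Within numbers 2 and 3 the mucins did not follow each other: PMA 2 held the lowest Muc5ac value of these 4 arrays (8.42) and the highest Muc5b value (11.20).

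**Figure D5:**
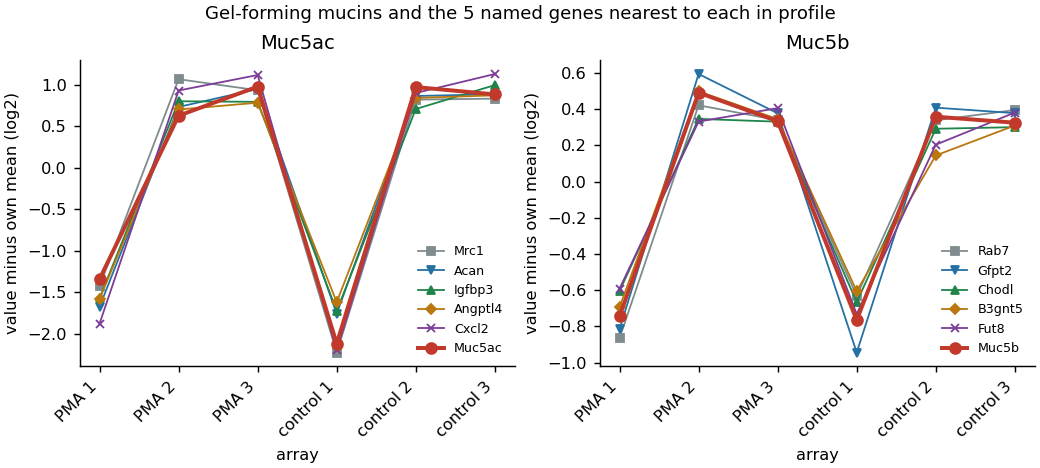
RMA values minus each gene's own mean (log2) on the 6 arrays for Muc5ac (left) and Muc5b (right), drawn thick in red with the 5 named genes nearest in profile. All profiles dip in PMA 1 and control 1, which the choice of genes by likeness on these arrays largely fixes. Muc5ac and its 5 neighbours read lower in control 1 than in PMA 1, by little for Acan and Angptl4.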

How the data were processed

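The authors deposited log2 values made with RMA, per the submitters' processing notes, which corrects background, quantile-normalizes arrays and summarises probes per probe set. The RMA version, array name and annotation are among the details not given in the sources used here. Quantile normalization hides any change that moves every transcript the same way. Values were used as deposited.

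Of 1246 probe sets, 963 were named by matching the RefSeq accession in their identifier, without versions, to the RefSeq table of mouse assembly GRCm38.p6. For gene lists, 1 probe set of highest mean stood for a gene. The PMA (n = 3) and control (n = 3) groups were fitted in limma 3.58.1 (R 4.3.3) on all probe sets, with Benjamini-Hochberg adjustment and a threshold of 0.05. Number 1 was compared with numbers 2 and 3 with PMA as a term. The code was tested on simulated data, which held a spread between numbers for the block fit only. That test does not show what the fit without a block could detect on these arrays. The number of arrays limits precision.

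The members, lists and comparisons were chosen with earlier results of these data known. Genes outside the 2 mucins were named by rule: the 5 of nearest profile to each mucin, and from each list up to 4 called genes in each direction, or else the 2 of largest difference. The list genes named without a call, and all markers, were picked after their values were seen. Listed names not found as current symbols were not counted, and 1 marker is not reported here.

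Pairing by number was checked with the correlation, over probe sets, of each array's deviations from its group mean. Same-numbered arrays correlated at 0.956, 0.815 and 0.912, and the block was fitted as an alternative. In a group of 3 these deviations sum to 0, so the gap of number 1 by itself makes the values for numbers 2 and 3 high. Without number 1, PMA 2 minus PMA 3 and control 2 minus control 3 correlated at 0.041, so a pairing of numbers 2 and 3 was not shown. Promoter sequences of the 2 mucins were not analysed here.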

Additional observations from a re-analysis of the deposited data

How the results depend on the processing

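The PMA differences were not called under any alternative tried, and neither was any other probe set. With the replicate number as a block the Muc5ac difference stayed 0.18 log2 units (SE 0.17, in place of 1.06) and that of Muc5b 0.054 (SE 0.066, in place of 0.46), and the block changed no call. The direction of the Muc5ac PMA difference was not stable, and that of Muc5b reversed only where a single array was left out. Leaving out single arrays, which unbalances the numbers, gave Muc5ac differences from -0.84 (without control 1) to 0.89 (without PMA 1), and Muc5b differences from -0.31 (without control 1) to 0.44 (without PMA 1). Those fits carry the gap of number 1 into the PMA difference. With number 1, 2 or 3 out of both groups, Muc5ac differed by -0.13, 0.44 and 0.22. Muc5b then differed by 0.070, 0.014 and 0.077. The lower values in number 1 kept their direction under all alternatives run, all of which reuse arrays where the gap was already known. For Muc5ac the difference ran from -3.05 (control arrays alone, 1 against 2) to -2.14 (PMA arrays alone, 1 against 2). For Muc5b it ran from -1.20 (quantile normalization) to -1.08 (without number 2). Both mucins were called in each alternative that kept both number 1 arrays. In those alternatives the count called ran from 409 (1 probe set per named gene, 909 tested) to 543 (without PMA 2), against 519. The dependence of the Muc5b PMA difference on number 1 took the other sign, 0.013 in place of -0.050, after quantile normalization of the table. Signal over background is unknown, so what a dim probe set could miss cannot be told.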

Other observations

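Across all probe sets, 1 was called for a PMA difference that depended on the number, the unnamed probe set uc009kma.1_psr1_at, which was singled out after its values were seen. It read 5.85, 8.31 and 8.21 in PMA arrays 1, 2 and 3, and 4.61, 8.22 and 8.23 in control arrays 1, 2 and 3. Its PMA difference in number 1 exceeded that in numbers 2 and 3 by 1.21 log2 units (SE 0.13), with a limma adjusted p of 0.0360. It also had the largest absolute difference between PMA 1 and control 1, at 1.24, followed by Mrc1 at 0.80 and Muc5ac at 0.78. All 3 were low in number 1, and the probe set differed there by -3.01 log2 units (SE 0.20).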
